A study of Homo sapiens with 8 samples.

Results

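Ribosome footprints were examined on the genes that encode the oxidative phosphorylation (OXPHOS) machinery, in which the mitochondrial and the nuclear genome each supply part of the protein subunits. Members were taken by gene symbol: the 13 protein-coding genes of the mitochondrial genome (MT- genes) and nuclear genes whose symbols carry the prefixes of subunits of complexes I to V. Pseudogenes and symbols starting NDUFAF or SDHAF, which name assembly factors, were left out. The prefixes also took in genes that are not structural subunits, such as the inhibitor ATP5IF1, and the joined locus NDUFC2-KCTD14. The rule found 106 of the 20165 regions in the count tables, where a region is a group of transcripts counted together. Of these, 13 were MT- regions and 93 were nuclear regions, which carried 88 nuclear symbols. Complex I had 38 nuclear and 7 MT- regions, complex II had 4 nuclear regions, complex III had 12 nuclear and 1 MT- region, complex IV had 19 and 3, and complex V had 20 and 2. COX7B and NDUFA6 matched no region and were not analysed here.

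Footprints were sequenced from OVCAR3, a long-established human line of ovarian cancer, as 8 libraries in 4 groups of 2. In the first experiment transfection lasted 48 h at 30 nM siRNA, and the siRNA was either a control (siControl) or directed at OARD1, the gene for the ADP-ribose hydrolase TARG1 (siTARG1). In the second, cells carrying a lentiviral pTRIPZ hairpin against endogenous RACK1, a protein of the small cytosolic ribosomal subunit, were made to express an HA-tagged copy of RACK1, either unmutated (RACK1-WT) or changed at the residues that carry mono(ADP-ribose) (RACK1-Mut). Both RACK1 groups received 1 ug/mL doxycycline for 48 h, so neither holds untreated or untransduced cells, and whether a line came from 1 clone is not given in the sources used here. The labels do not say how the libraries of a group are related, and the study's methods describe independent biological samples for its sequencing experiments in general, so p-values measure the spread between these libraries.

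OXPHOS couples the flow of electrons through complexes I to IV of the inner mitochondrial membrane to proton pumping, and complex V (ATP synthase) uses the proton gradient to make ATP. Complex II, succinate dehydrogenase, is the only complex of the chain with no subunit from mitochondrial DNA. The MT- mRNAs are translated inside the organelle by mitochondrial ribosomes, whereas the nuclear mRNAs are translated by cytosolic ribosomes and their products are imported. The footprints were prepared by pelleting cytosolic 80S ribosomes, and how completely footprints of mitochondrial ribosomes were recovered was not tested. A footprint count follows both the amount of an mRNA and the ribosomes on it, and the footprints alone do not separate these. In a bulk sample, fewer cells of a type and less RNA per cell cannot be told apart.

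The libraries held between 3100947 and 6604190 coding counts, and the RACK1-WT libraries (6174010 and 6604190) were deeper than the RACK1-Mut libraries (3798750 and 4174707). OARD1 checked the siRNA labels, which had 121 and 69.1 normalised counts under siControl and 5.83 and 6.75 under siTARG1 (log2 fold change -3.94 ± 0.56 SE, DESeq2 adjusted p = 9.3e-11). RACK1 had 23334 and 23594 normalised counts in RACK1-WT and 17745 and 17274 in RACK1-Mut (-0.42 ± 0.06, adjusted p = 1.3e-08), and reads from residual endogenous and re-expressed RACK1 cannot be told apart. Of 10 markers of epithelial ovarian carcinoma cells, 9 matched a region and had counts, and CD24 matched none. Their summed level was 10944 to 11339 CPM (counts scaled to the coding total of the library) in siControl and 6775 to 7891 in siTARG1, and 10511 to 10881 across the RACK1 libraries, and its part in the results below was not tested. The lower sum lay in KRT8 (3310 and 3403 against 1604 and 1846), KRT18 (3339 and 3148 against 1347 and 1533) and MUC16 (2850 and 2602 against 1626 and 2290), while KRT7 (667 and 624 against 917 and 963) and EPCAM (651 and 666 against 725 and 755) were higher in siTARG1. Markers of fibroblasts, leukocytes and endothelial cells summed to at most 38.9, 8.58 and 2.85 CPM, with CD3E and CDH5 at 0 and no region for PECAM1.

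The MT- mRNAs are compact, and some neighbouring pairs share bases. The files gave MT-ATP8 161 of its 207 annotated coding bases and MT-ATP6 634 of 681, while MT-ND4L had 290 of 297 and MT-ND4 had 1371 of 1378. These shortfalls covered the 46 bases shared by MT-ATP8 and MT-ATP6 and the 7 bases shared by MT-ND4L and MT-ND4. MT-ATP6 lacked 1 base more. Its last annotated base, 9207, is also the first of MT-CO3 (9207 to 9990), which was given 783 coding bases. The levels of these genes thus rest on their unshared bases. Below are the MT-ATP8 coding sequence (chrM:8366-8572, plus strand) and the last 100 bases of MT-ND4L (chrM:10667-10766, plus strand) from GENCODE release 44 transcripts on GRCh37, with the shared bases in capitals. They are shown because a footprint on the bases in capitals cannot be given to either gene. Whether the authors' index held the same mitochondrial sequence is not given in the sources used here.
MT-ATP8: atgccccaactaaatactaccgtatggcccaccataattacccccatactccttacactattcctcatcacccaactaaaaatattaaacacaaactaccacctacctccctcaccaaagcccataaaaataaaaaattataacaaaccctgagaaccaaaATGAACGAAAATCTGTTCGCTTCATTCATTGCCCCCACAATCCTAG
MT-ND4L: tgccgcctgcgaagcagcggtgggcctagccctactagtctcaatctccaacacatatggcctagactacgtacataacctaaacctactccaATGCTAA

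The nuclear members took a larger part of all coding counts than the MT- genes in every library. The MT- genes held 0.390% and 0.333% of coding counts in siControl, 0.278% and 0.343% in siTARG1, 0.0823% and 0.143% in RACK1-WT and 0.118% and 0.196% in RACK1-Mut. The nuclear members held 1.72% and 1.81% in siControl, 1.81% and 1.81% in siTARG1, 2.17% and 2.19% in RACK1-WT and 2.11% and 2.1% in RACK1-Mut. Every MT- share in the RACK1 experiment was below every MT- share in the siRNA experiment, and every nuclear share was above. The 95% Wilson interval of the lowest MT- share was 0.0801 to 0.0845% and that of the highest was 0.384 to 0.396%, and such intervals cover counting error only. The siRNA and RACK1 experiments differed in transduction and doxycycline as well as in the experiment itself, which cannot be told apart, and no test was made between them. As background, doxycycline is a tetracycline, a class of antibiotics known to act on bacterial and mitochondrial ribosomes.

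**Figure D1:**
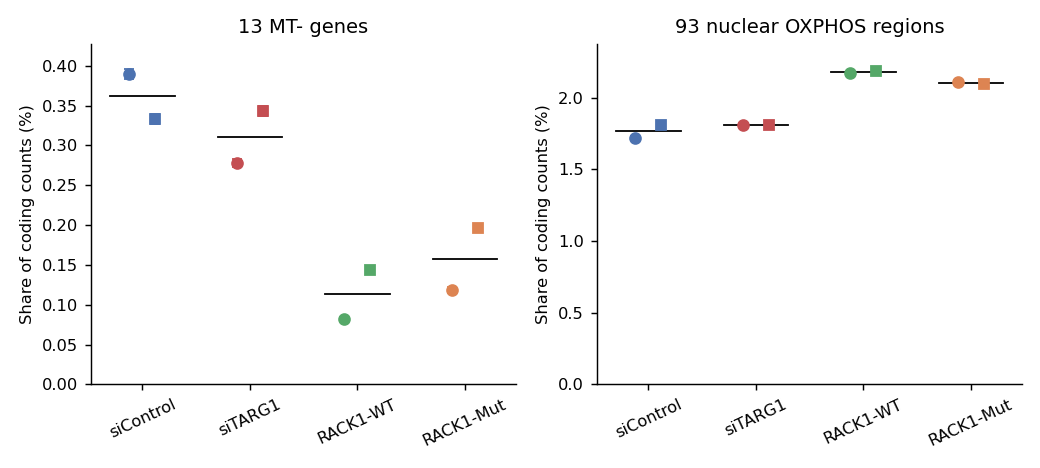
Share of all coding counts (%) held by the 13 MT- genes (left) and the 93 nuclear OXPHOS regions (right) in each of 8 libraries. Circles and squares are libraries 1 and 2, error bars are 95% Wilson intervals, smaller than most symbols, and black lines are group means. MT- shares lay between 0.0823% and 0.196% in the RACK1 libraries and between 0.278% and 0.390% in the siRNA libraries.

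Within each RACK1 group the libraries differed more on the MT- genes than on the nuclear ones. All 13 MT- genes were higher in library 2 than in library 1 of RACK1-WT, by a median of 0.69 on the log2 scale, and all 13 were higher in library 2 of RACK1-Mut, by a median of 0.66. For nuclear members the median absolute difference between libraries was 0.09 in RACK1-WT and 0.06 in RACK1-Mut. In the siRNA experiment the median absolute difference of the MT- genes was 0.38 in siControl and 0.30 in siTARG1, against 0.12 and 0.08 for nuclear members. Comparisons of the MT- genes between groups therefore rest on a wider spread than those of the nuclear members.

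Levels were compared between genes per length, as coding CPM per kilobase of coding sequence. The median over all 11207 regions with a mean of at least 10 counts lay between 20.1 and 21.7 in the 8 libraries. MT-CO1, the catalytic subunit of cytochrome c oxidase (complex IV), had the highest mean level of the MT- genes, at 850 and 616 in siControl, 598 and 752 in siTARG1, 128 and 252 in RACK1-WT and 197 and 334 in RACK1-Mut. MT-CO3, another core subunit, followed with 671 and 554, 456 and 612, 135 and 263, and 187 and 344 in the same order. MT-CO2, which receives electrons from cytochrome c, was at 476 and 512, 425 and 456, 79.9 and 142, and 117 and 185. For all 3 complex IV genes the siRNA libraries lay above the RACK1 libraries with no overlap.

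MT-CYB, the only mitochondrially encoded subunit of complex III, was at 395 and 303 in siControl, 253 and 329 in siTARG1, 63.8 and 143 in RACK1-WT and 92.0 and 168 in RACK1-Mut. The ATP synthase gene MT-ATP6, whose product forms part of the proton channel, was at 335 and 378, 237 and 311, 74.0 and 119, and 101 and 195 in that order. MT-ATP8, its small partner, was at 204 and 316, 230 and 353, 84.6 and 87.5, and 104 and 193. These 3 genes also showed no overlap between the experiments.

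The complex I genes were lower per length than those of complex IV. MT-ND5, a proton-pumping subunit, was at 189 and 207 in siControl, 140 and 172 in siTARG1, 79.3 and 107 in RACK1-WT and 108 and 159 in RACK1-Mut. MT-ND1, at the base of the membrane arm, was at 232 and 149, 129 and 156, 42.6 and 80.0, and 61.6 and 92.0. MT-ND4, another pumping subunit, was at 169 and 130, 115 and 115, 39.9 and 62.9, and 56.4 and 89.3. The highest RACK1 library was below the lowest siRNA library for MT-ND1 and MT-ND4, and above it for MT-ND5.

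The remaining complex I genes encode smaller or membrane-arm subunits. MT-ND4L was at 170 and 171 in siControl, 146 and 163 in siTARG1, 61.6 and 73.2 in RACK1-WT and 82.6 and 103 in RACK1-Mut. MT-ND2, a pumping subunit, was at 135 and 127, 90.1 and 111, 42.3 and 60.5, and 64.1 and 96.8, and MT-ND3 was at 87.2 and 161, 108 and 124, 35.9 and 58.0, and 63.0 and 112. Only MT-ND4L of these 3 had no overlap between the experiments.

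MT-ND6 stood apart, as the only protein gene transcribed from the light strand of mitochondrial DNA. Its level was 42.5 and 59.6 in siControl, 53.9 and 57.5 in siTARG1, 36.9 and 53.7 in RACK1-WT and 42.9 and 58.7 in RACK1-Mut, so that the experiments overlapped. The mean of the siRNA libraries over the mean of the RACK1 libraries was 1.11 for MT-ND6 and ran from 1.56 (MT-ND5) to 3.56 (MT-CO2) for the other 12 genes. The median level of those 12 over that of MT-ND6 was 3.49 to 5.12 in the siRNA libraries and 1.81 to 2.79 in the RACK1 libraries. These are descriptions of libraries that differ in more than 1 way.

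**Figure D2:**
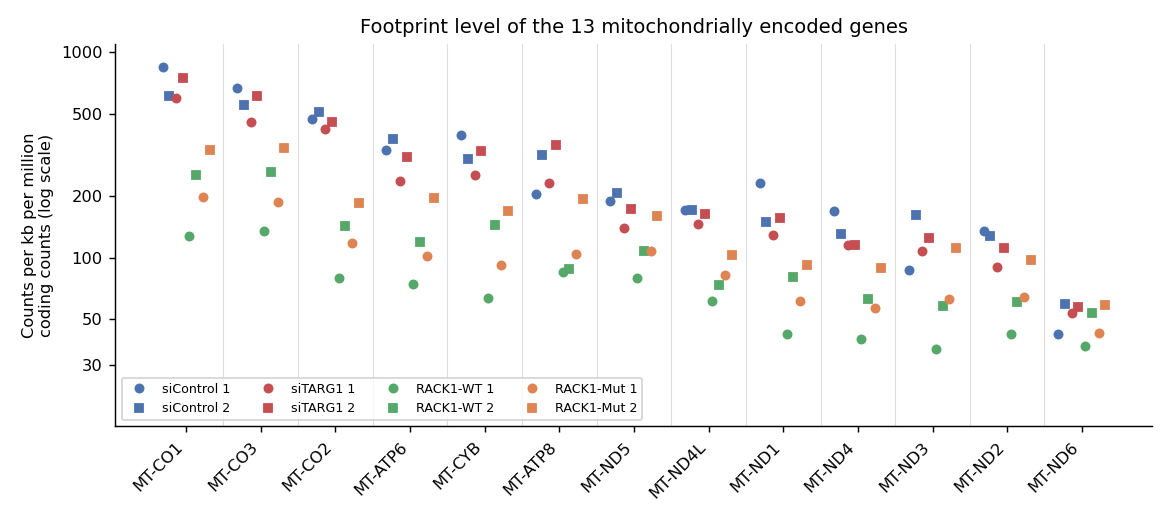
Level of each of the 13 MT- genes in each library, in coding CPM per kb on a log axis, ordered by mean level. Circles and squares are libraries 1 and 2 of a group. MT-CO1 ranged from 128 to 850 and MT-ND6, at the right, from 36.9 to 59.6.

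Among nuclear members with a mean of at least 10 counts (77 regions), the median level was lowest in complex II and highest in complex IV in every library. The complex II median was 136 to 171 in the siRNA libraries and 233 to 251 in the RACK1 libraries, and that of complex I was 248 to 277 and 282 to 305. Complex III had a median of 273 to 330 and 443 to 489, complex V of 500 to 524 and 598 to 646, and complex IV of 794 to 888 and 1269 to 1313. In each complex the RACK1 medians were above the siRNA medians, the opposite order to the MT- genes. The MT- medians were 115 to 169 and 42.3 to 96.8 in complex I, and 456 to 671 and 128 to 334 in complex IV.

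**Figure D3:**
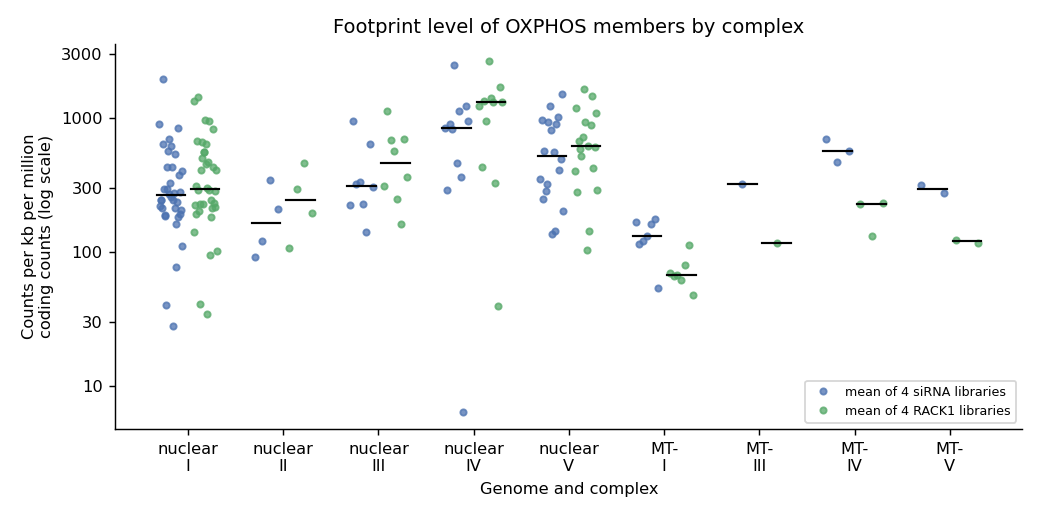
Mean level of each member in the 4 siRNA and the 4 RACK1 libraries, by genome and complex, in coding CPM per kb on a log axis, for members with a mean of at least 10 counts. Each point is 1 region and black lines are medians. Nuclear medians were higher in the RACK1 libraries and MT- medians were lower.

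Single nuclear subunits spanned a wide range. COX6B1, an accessory subunit of complex IV, was the highest of all members, with a mean of 2586 over the 8 libraries (2401 to 2690). NDUFA3 led complex I (mean 1707), ATP5MC3 led complex V (1448), UQCR10 led complex III (1042) and SDHC, a membrane anchor of complex II, led that complex (404). Among members with a mean of at least 10 counts the lowest were COX7B2 in complex IV (23.0), NDUFB8 in complex I (31.2), SDHA in complex II (99.7), ATP5MF in complex V (120) and UQCRFS1, the Rieske iron-sulfur protein, in complex III (151). The NDUFB8 and ATP5MF regions joined another gene (SEC31B and PTCD1), and their coding lengths of 2856 and 2349 bases, and so their levels, are those of the joined regions. COX7B2, an isoform known from testis, was at 2.93 to 10.8 in the siRNA libraries and 34.9 to 44 in the RACK1 libraries. COX6C, a small complex IV subunit, was at 330 to 606 and 1345 to 1489.

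The catalytic head of ATP synthase is built from alternating alpha and beta subunits around a central stalk. ATP5F1B (beta) was at 937 to 1264 across the 8 libraries, ATP5F1A (alpha) at 342 to 438, ATP5F1D (delta) at 529 to 776 and ATP5F1C (gamma) at 225 to 290. The ranges of these 4 genes did not overlap, and ATP5F1B stood above ATP5F1A although the complex holds equal numbers of alpha and beta subunits. ATP5F1E had 2 regions without coding positions and so no value. ATP5IF1, the inhibitor of the enzyme's reverse reaction, was at 259 to 308 in the siRNA libraries and 559 to 632 in the RACK1 libraries.

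Gene families with tissue isoforms were represented by their widely expressed members. COX4I1 was at 810 to 1313, whereas COX4I2, an isoform known from lung, did not exceed 0.92. COX6A1, in a region joined with another gene, was at 775 to 981, COX7A2 at 1008 to 1377, COX7A2L at 297 to 390 and COX8A at 1110 to 1862. The muscle isoforms COX6A2 and COX7A1 and the testis isoforms COX6B2 (a joined region) and COX8C had no count in any library. Each was at 0 of 35413577 coding counts over 8 libraries, which allows up to 0.0847 CPM (3 counts, counting error only). NDUFA4, a complex IV subunit despite its name, was at 794 to 1375, and its paralog NDUFA4L2 was at 0.57 to 4.89. The 3 genes for the ring-forming c subunit encode the same mature protein, and in every library ATP5MC3 (1064 to 1722) was above ATP5MC2 (649 to 963) and ATP5MC2 was above ATP5MC1 (240 to 568).

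Footprints of nuclear members lay almost wholly in coding sequence. Their 5′ UTRs held 0.949 to 1.30% of the counts over UTRs and coding sequence, against 3.85 to 4.34% over all regions. Their 3′ UTRs held 0.447 to 0.668%, against 0.666 to 1.87%. The MT- regions have no UTR in the files, and the file headers place a read 14 bases from its 5′ end, whereas the study's methods count from the read's 3′ end. How either placement affects counts near the ends of an MT- gene was not tested.

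RACK1-Mut was then compared with RACK1-WT to describe ribosome occupancy. These groups differ in the modification sites on RACK1 and also in the footprints on RACK1 itself (log2 fold change -0.42 ± 0.06 SE). The parts of the sites and of the RACK1 level cannot be told apart. A region was called when its DESeq2 adjusted p over all regions tested was below 0.05. No member was called among 13 MT- and 79 nuclear members tested, where the share called over all 12520 regions was 0.0799%. Without adjustment, p was below 0.05 for 1 MT- (7.69%) and 4 nuclear members (5.06%), and for 205 of all regions (1.64%). On the log2 scale the median change of the MT- genes was 0.47, and all 13 values were above 0, where without RACK1-WT library 1 it was 10 of 13 and without RACK1-Mut library 2 it was 9 of 13. The median of the nuclear members was -0.05, with 58 of 79 values below 0, and that of all regions was 0.00.

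The MT- values in the RACK1 libraries overlapped for 9 of 13 genes. MT-ATP8 had 69.6 and 71.1 normalised counts in RACK1-WT and 83.5 and 156 in RACK1-Mut, with the smallest unadjusted p of the MT- genes (0.76 ± 0.30 SE, DESeq2 adjusted p = 1.00). MT-ND3 had 63.4 and 101 against 109 and 194 (0.88 ± 0.52), MT-ND2 had 225 and 318 against 333 and 505 (0.63 ± 0.38), and MT-ND4L had 91.2 and 107 against 119 and 149 (0.43 ± 0.24). In these 4 genes (30.8% of 13) both RACK1-Mut libraries were above both RACK1-WT libraries, as was so for 18.7% of all regions. In each of them RACK1-Mut library 1 lay nearer to the RACK1-WT libraries than RACK1-Mut library 2.

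For the other 9 genes the RACK1-WT library 2 was above the RACK1-Mut library 1. MT-CO1, for example, had 1004 and 1960 normalised counts in RACK1-WT and 1516 and 2581 in RACK1-Mut (0.47 ± 0.60). MT-CYB had 372 and 825 against 523 and 961 (0.31 ± 0.69), and MT-ND6 had the smallest change, with 98.9 and 142 against 112 and 154 (0.14 ± 0.26). Between these, MT-ND5, MT-ND4, MT-ATP6, MT-CO2, MT-CO3 and MT-ND1 had log2 fold changes of 0.31 to 0.60. The edgeR quasi-likelihood test called 4 MT- genes higher, where it called 0.0479% of all regions higher: MT-ND2 (0.62, adjusted p = 0.0034), MT-ND5 (0.50, 0.0037), MT-ND3 (0.87, 0.0071) and MT-ATP6 (0.59, 0.039). The MT- median was 0.20 without RACK1-WT library 1, 0.89 without RACK1-WT library 2, 0.77 without RACK1-Mut library 1 and 0.06 without RACK1-Mut library 2.

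The ratio of MT- to nuclear counts within a library needs no scaling between libraries. Its log2 value was -4.72 and -3.93 in RACK1-WT and -4.16 and -3.42 in RACK1-Mut, a difference of 0.54 with a pooled SD of 0.54 between libraries, and the groups overlapped. Leaving out RACK1-WT library 1 or RACK1-Mut library 2 left 0.14 and 0.17, and leaving out RACK1-WT library 2 or RACK1-Mut library 1 gave 0.93 and 0.90.

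Among nuclear members, small decreases were common in RACK1-Mut and none was called. Both RACK1-Mut libraries were below both RACK1-WT libraries for 29 of 79 members (36.7%), against 18.9% of all regions. They were above them for 4 (5.06%), against 18.7% of all regions. The 29 were 11 of 18 members tested in complex V, 10 of 36 in complex I and 3 of 4 in complex II. Complex III had 3 of 9 and complex IV 2 of 12. On the log2 scale the complex V median was -0.13, with 15 of 18 values below 0. The complex II median was -0.07, with 4 of 4 below 0, and that of complex I was -0.05, with 25 of 36 below 0. NDUFA1, an accessory subunit of complex I, had the smallest unadjusted p, with 1509 and 1655 normalised counts in RACK1-WT and 1315 and 1324 in RACK1-Mut (-0.26 ± 0.09). ATP5F1B had 10258 and 9833 against 9150 and 8922 (-0.15 ± 0.06). ATP5F1A had 3713 and 3456 against 3264 and 3110 (-0.17 ± 0.08), and ATP5MG, a membrane-part subunit with a near-identical copy in ATP5MGL, had 1096 and 1016 against 877 and 939 (-0.22 ± 0.10). The DESeq2 adjusted p of each of these was 1.00. The RACK1-Mut libraries were the shallower ones throughout, and the part of depth was not tested.

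siTARG1 was compared with siControl to ask how knockdown of TARG1, an enzyme that removes ADP-ribose from proteins, relates to footprints. Complexes I, II and V had nuclear members called lower, and complexes I, III, IV and V had nuclear members called higher. Of 78 nuclear members tested, 9 were called lower (11.5%) and 5 higher (6.41%), close to the 9.19% and 7.18% of all 12056 regions, of which 16.4% were called in either direction. Of 13 MT- genes, 4 were called lower (30.8%) and none higher. The median change on the log2 scale was -0.01 for nuclear members, -0.27 for MT- genes and 0.00 for all regions. Of the 18 called members, 3 were called without siControl library 1, 6 without siControl library 2, 1 without siTARG1 library 1 and 7 without siTARG1 library 2, and SDHC was called in each of these fits.

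**Figure D4:**
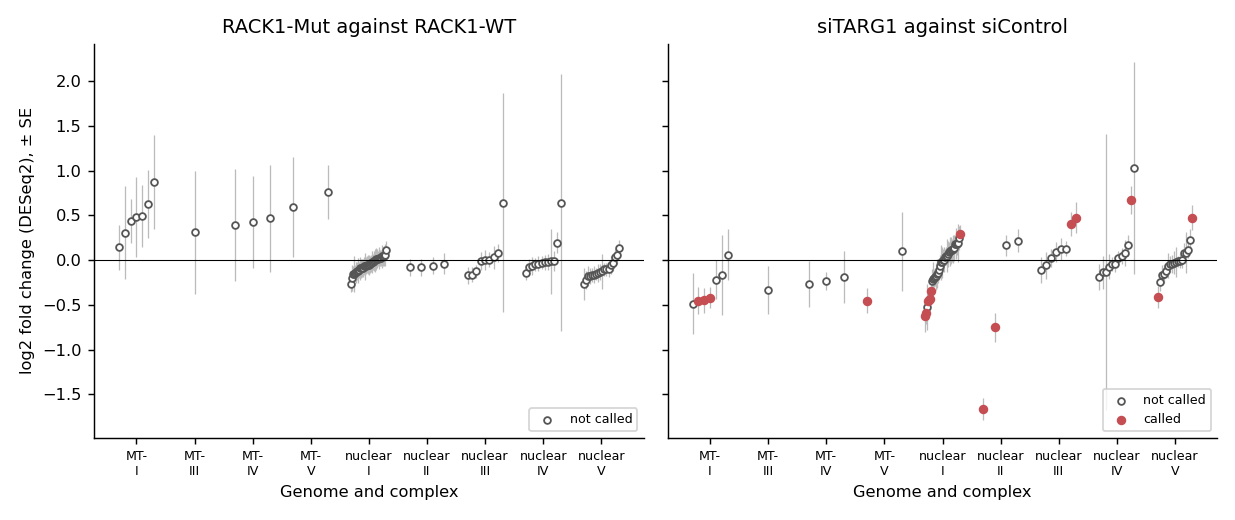
DESeq2 log2 fold change of each member with its SE, by genome and complex, for RACK1-Mut against RACK1-WT (left) and siTARG1 against siControl (right). Filled red points passed an adjusted p of 0.05, open points did not. On the right, SDHC at -1.66 lies lowest, and on the left all 13 MT- genes lie above 0 with none called.

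The largest change of a called member was in complex II. SDHC, which anchors the enzyme in the membrane and helps to bind ubiquinone, had 982 and 961 normalised counts in siControl and 305 and 310 in siTARG1, a decrease of 3.16-fold (log2 -1.66 ± 0.12, DESeq2 adjusted p = 7.3e-38). SDHB, the iron-sulfur subunit, had 427 and 497 against 252 and 297 (-0.75 ± 0.16, adjusted p = 7.2e-05). Neither SDHA nor SDHD was called. SDHA, the flavoprotein that oxidises succinate, had 621 and 629 against 730 and 671 (0.17 ± 0.12, adjusted p = 0.39). SDHD, the second anchor, in a region joined with TEX12 and an unnamed gene, had 576 and 536 against 603 and 695 (0.22 ± 0.13, adjusted p = 0.27). Both siTARG1 libraries were thus below both siControl libraries for SDHC and SDHB and above them for SDHA and SDHD. Such separation was common, with 31.4% of all regions below and 31.2% above.

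Complex I had 6 members called lower and 1 higher among 36 tested, where 9.19% of all regions were called lower and 7.18% higher. NDUFB5, an accessory subunit of the membrane arm, had 660 and 628 normalised counts in siControl and 417 and 441 in siTARG1 (-0.59 ± 0.13, adjusted p = 0.00011). NDUFB4 and NDUFB9, of the same arm, had 951 and 1075 against 693 and 784 (-0.46 ± 0.12) and 613 and 634 against 472 and 451 (-0.43 ± 0.13). NDUFC2 had 371 and 318 against 216 and 232 (-0.63 ± 0.18).

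Core subunits were among the called complex I members too. NDUFS1, the largest subunit and a carrier of iron-sulfur clusters in the matrix arm, had 679 and 721 normalised counts in siControl and 502 and 526 in siTARG1 (-0.44 ± 0.12). NDUFS8, another iron-sulfur subunit, had 754 and 672 against 554 and 570 (-0.35 ± 0.12). NDUFS5, an accessory subunit, went the other way with 861 and 894 against 1058 and 1092 (0.29 ± 0.10). The groups did not overlap for any of these 7 genes, which were picked by their call, so this adds no support. The other 29 complex I members tested were not called, and the complex median was -0.01. Over all 36 members both siTARG1 libraries were below both siControl libraries for 14 and above for 7. Over all regions these shares were 31.4% and 31.2%.

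The remaining called nuclear members were mostly higher. COX6C had 279 and 305 normalised counts in siControl and 484 and 443 in siTARG1 (0.67 ± 0.15, adjusted p = 0.00022), and ATP5MC1 had 365 and 440 against 574 and 540 (0.48 ± 0.14, adjusted p = 0.0086). UQCRH, the hinge protein of complex III, had 496 and 602 against 688 and 765 (0.41 ± 0.13), and UQCRHL, its near-identical copy, had 243 and 267 against 320 and 389 (0.48 ± 0.17), and how the counting split reads between the pair is uncertain. ATP5MK, a small membrane-part subunit of ATP synthase, was lower, with 722 and 784 against 554 and 576 (-0.41 ± 0.12, adjusted p = 0.0056). In complex V, ATP5MC2 (-0.05 ± 0.09) and ATP5MC3 (0.12 ± 0.09) were not called beside ATP5MC1, nor were ATP5F1A (-0.01 ± 0.08), ATP5F1B (-0.01 ± 0.06), ATP5F1C (0.08 ± 0.11) and ATP5F1D (-0.04 ± 0.10).

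**Figure D5:**
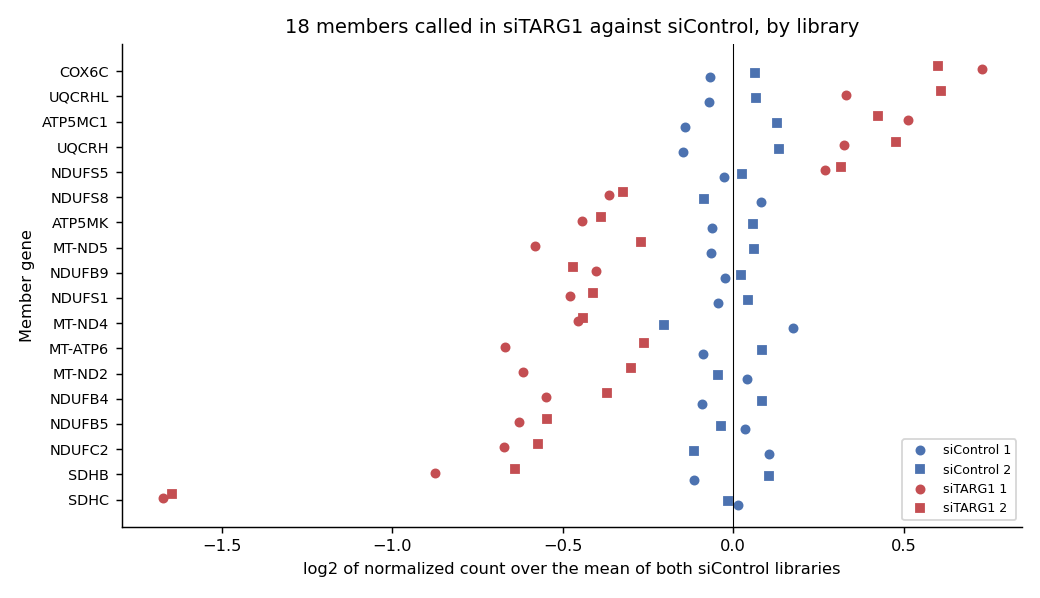
The 18 members called in siTARG1 against siControl, each library's normalised count shown as log2 over the mean of both siControl libraries. Blue marks are siControl, red marks are siTARG1, circles are library 1 and squares are library 2. The siTARG1 libraries lie on 1 side of the siControl libraries for every gene shown, genes that were picked by their call. SDHC lies furthest from 0.

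The 4 called MT- genes were of complexes I and V. MT-ND5 had 1267 and 1384 normalised counts in siControl and 886 and 1100 in siTARG1 (-0.42 ± 0.11, adjusted p = 0.0027), and MT-ND4 had 857 and 659 against 554 and 559 (-0.45 ± 0.14, adjusted p = 0.0093). MT-ATP6 had 786 and 886 against 526 and 697 (-0.45 ± 0.14, adjusted p = 0.0097), and MT-ND2 had 519 and 489 against 329 and 409 (-0.46 ± 0.15, adjusted p = 0.020). For MT-ND5, MT-ATP6 and MT-ND2, siTARG1 library 1 was the lower of its pair, and for MT-ND4 siControl library 1 stood above the other 3 libraries. With all 8 libraries in 1 DESeq2 fit none of the 4 was called (adjusted p of 0.28 to 0.49), while edgeR called 8 MT- genes lower, where it called 15.4% of all regions lower.

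The other 9 MT- genes were not called. MT-CO2 had 1204 and 1295 against 1019 and 1102 (-0.24 ± 0.10, adjusted p = 0.083), MT-CYB had 1666 and 1278 against 1012 and 1328 (-0.33 ± 0.27), and MT-CO1 had 4848 and 3512 against 3231 and 4100 (-0.19 ± 0.29). MT-ND1 (-0.49 ± 0.34), MT-CO3 (-0.27 ± 0.26), MT-ND4L (-0.22 ± 0.22) and MT-ND3 (-0.17 ± 0.45) also had negative values, and MT-ATP8 (0.10 ± 0.44) and MT-ND6 (0.06 ± 0.29) had positive ones. Both siTARG1 libraries were below both siControl libraries for 6 of 13 MT- genes (46.2%) and above for none. Over all regions these shares were 31.4% below and 31.2% above, and over nuclear members 32.1% (25 of 78) and 24.4% (19 of 78).

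The log2 ratio of MT- to nuclear counts was -2.14 and -2.44 in siControl and -2.70 and -2.40 in siTARG1, a difference of -0.26 with a pooled SD of 0.21, and the groups overlapped. Without siControl library 1 the difference was -0.11, without siControl library 2 it was -0.41, and without siTARG1 library 1 and library 2 it was -0.11 and -0.41. The median over MT- genes was -0.15 without siTARG1 library 1 and -0.45 without siTARG1 library 2.

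Some 3′ UTRs of the members called lower shared a short sequence. The 7-mers TGAACAT and GAACATA, which overlap and were chosen from earlier results on these same libraries, so that the shares are a description, were searched on the sense strand of annotated 3′ UTRs. At least 1 of them occurred in 39.1% of the 1091 regions with an annotated 3′ UTR that were called lower in siTARG1, in 18.2% of the 9901 such regions not called and in 14.9% of the 857 called higher, with median 3′ UTR lengths of 1537, 1291 and 1837 bases. Among nuclear members it occurred in 5 of 9 called lower (SDHC, SDHB, NDUFB5, NDUFB4 and NDUFS1), in 8 of 64 not called and in none of 5 called higher. The windows of 30 bases below, in GRCh37 coordinates, hold the match in capitals in the 4 of these genes with the smallest adjusted p. They are shown because SDHB and NDUFB4 carry it in 3′ UTRs of only 159 and 237 bases, and SDHC, SDHB and NDUFB4 each hold both 7-mers as 1 run of 8 bases. NDUFB5 and NDUFS1 carry a match in longer annotated 3′ UTRs, of 3607 and 9368 bases. The NDUFB5 match lies 2078 bases from the stop, whereas the counted NDUFB5 region held 457 bases of 3′ UTR.
SDHC, chr1:161332849-161332878, plus strand: aaaattatcatTGAACATAttaatggttat
SDHB, chr1:17345317-17345346, minus strand: cagctcagagcTGAACATAatttatatcta
NDUFB4, chr3:120321304-120321333, plus strand: cattgaatgaaTGAACATAaacttcattaa
NDUFB5, chr3:179343895-179343924, plus strand: tttttttcaaaTGAACATtttaactggggt

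A second pair, TGAATAT and GAATATA, occurred in 26% of regions called lower, 24.5% of those not called and 49.4% of those called higher. Among nuclear members it occurred in 2 of 9 called lower, in 11 of 64 not called and in 1 of 5 called higher (COX6C). A match describes letters in a window, and whether any factor or siRNA acts there was not tested.

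Genes that assemble, supply or regulate OXPHOS were taken as 11 lists of 142 genes in all. In RACK1-Mut against RACK1-WT none of their 133 tested regions was called. In siTARG1 against siControl 13 were called higher (9.77%) and 11 lower (8.27%), near the 7.18% and 9.19% of all regions. The smallest adjusted p was that of CYCS, the electron carrier cytochrome c, with 171 and 223 normalised counts in siControl and 464 and 610 in siTARG1 (1.45 ± 0.18, adjusted p = 2.9e-13). In the same list of carriers COQ5, an enzyme of ubiquinone synthesis, was lower (-0.99 ± 0.25), and 1 higher and 2 lower calls were made among 18 regions.

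Assembly factors moved in both directions, where 7.18% of all regions were called higher and 9.19% lower. For complex IV 3 of 20 regions were called higher and 3 lower. The smallest adjusted p were those of SCO1, a copper chaperone (1.15 ± 0.19), and a region that joins HIGD1A with CCDC13 and an unnamed gene (0.88 ± 0.17). The lower ones were COX20 (-1.02 ± 0.33), SURF1 (-0.64 ± 0.20) and COX15 (-0.52 ± 0.17). For complex I, of 18 regions TIMMDC1 was higher (0.71 ± 0.15) and NDUFAF3 lower (-0.66 ± 0.19), and for complex III UQCC1 was lower (-0.62 ± 0.22) of 5. Of 4 regions each for complex II and complex V assembly none was called.

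Genes that act in the expression of the mitochondrial genome and its control were also called, where 7.18% of all regions were called higher and 9.19% lower. For transcription and RNA handling 3 of 23 regions were higher and 1 lower. Among the higher were POLRMT, the mitochondrial RNA polymerase (0.63 ± 0.16), and FASTKD5, which takes part in processing MT- transcripts (0.78 ± 0.23). The lower one was FASTKD2 (-0.52 ± 0.18). The elongation factor GFM1 was higher (0.39 ± 0.12) among 10 translation factor regions, and DGUOK, a nucleoside kinase, was lower (-0.55 ± 0.21) among 10 regions for mitochondrial DNA maintenance. Of 8 transcriptional regulators 3 were higher, led by ESRRA (0.71 ± 0.25) and PPARGC1B (1.11 ± 0.40). Each list is short, and the 11 lists together were called higher in 9.77% and lower in 8.27% of regions. In the tricarboxylic acid cycle DLD was higher (0.68 ± 0.12) and IDH3B lower (-0.98 ± 0.19), with 1 higher and 2 lower calls among 13 regions.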

How the data were processed

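Ribo-seq footprints of 8 OVCAR3 libraries were analysed from the authors' deposited count tables. Per the file headers and the study's methods, the authors removed adapters and molecular identifiers, removed contaminant reads with Bowtie (1.1.2), aligned reads to transcripts with TopHat2 (2.1.1) and counted reads of 26 to 36 bases with Plastid on hg19 and GENCODE annotation. The headers give an offset of 14 bases from the 5′ end, while the methods count from the read's 3′ end, a difference that was not resolved. Whether molecular identifiers were collapsed is not given in the sources used here. The deposited counts are raw counts per region, the authors' RPKM values served only to check scaling, and the deposited lengths (other columns) gave levels per kilobase. Symbols came from GENCODE release 44 on GRCh37 through transcript identifiers, and 19612 of 20165 regions matched. Of the 106 member regions, 8 had no coding positions (the regions of ATP5F1E, COX7C, UQCRQ and NDUFC2-KCTD14 and 1 of UQCR11), 5 had 0 counts in all libraries, 11 joined another gene, and 80 nuclear regions had a count.

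Coding counts of regions with at least 10 counts over the 4 libraries of a comparison were fitted with DESeq2 (1.42.0, R 4.3.3), the study's tool, with the group as the only term, Benjamini-Hochberg adjustment over all regions and calls at 0.05. Values are log2 fold changes ± SE, and normalised counts are counts over DESeq2 size factors. Alternatives were edgeR (4.0.16), TMM factors, other filters, thresholds and counts, a replicate term, all libraries in 1 fit and leaving out each library. The fits were tested on simulated data. Named genes were all MT- genes, called nuclear members (or the 4 smallest p), the highest and lowest level per complex, isoform families, ATP synthase head and complex II subunits, and at most 2 called genes per list. Genes called lower were added for complex IV assembly and for transcription and RNA handling. Members and lists were chosen with earlier results of these data known. With 2 libraries per group and 3100947 to 6604190 coding counts per library, precision is limited by the number of libraries, and the authors' reads were not reprocessed.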

Additional observations from a re-analysis of the deposited data

How the results depend on the processing

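In RACK1-Mut against RACK1-WT the count of called members was 0 in DESeq2. The alternatives that changed it were edgeR, which called 4, and the fit with the replicate number as a block, which called 1 (MT-CO1, 0.49, adjusted p = 0.014). In the fit of all 8 libraries 9 of 13 MT- and 50 of 79 nuclear members had no adjusted p, so these could not be called there. Over all regions DESeq2 called 10, edgeR 30 and the block fit 6. In siTARG1 against siControl the 18 called members became 9 with the replicate block, all among the 18, and 1 (SDHC) where a log2 change of 1 or more in size was also asked. They were 15 to 25 under the other alternatives with all 4 libraries, and all regions called were 1974 in DESeq2, 3470 in edgeR and 1125 with the block. Over all regions same-numbered libraries deviated together little (correlations of 0.083 and 0.031) and no source ties the numbers to a shared batch, so they were not taken as pairs. The MT- genes differed from this in the RACK1 libraries, where 13 of 13 deviated with the number in both groups (7 of 13 in the siRNA libraries). Within same-numbered libraries the log2 MT- to nuclear ratio differed by 0.57 and 0.51 in RACK1-Mut against RACK1-WT and by -0.56 and 0.04 in siTARG1 against siControl. Calls with each library left out were added after seeing the data, and the lone library is then assumed to vary like the other group. They numbered 0 in each fit of RACK1-Mut against RACK1-WT and 1 to 8 in siTARG1 against siControl. Medians over these fits were 0.056 to 0.89 for MT- and -0.070 to -0.060 for nuclear members in the first comparison and -0.45 to -0.15 and -0.037 to 0.012 in the second, and differences in the MT- to nuclear ratio were 0.14 to 0.93 and -0.41 to -0.11. The cause of these shifts was not tested. No called member changed direction under the alternatives run. COX4I2, COX7B2 and NDUFA4L2 had few counts, and p-values rest on 2 libraries a group.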
